A study of Rattus norvegicus with 4 samples.

Results

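The loci described here are noncoding transcripts listed at genes of chromatin regulators: enzymes that write, remove or read histone and DNA marks, subunits of nucleosome remodellers, histones and high mobility group (HMG) proteins. They were chosen by gene name alone, from the deposited names that begin with Hdac, Sirt, Kdm, Jmjd, Jarid, Smarc, Chd, Brd, Setd, Mll, Dnmt, Tet, Ezh, Suz12, Whsc1, Arid, Baz, Ino80, Cbx, Phf, Hmga, Hmgb, Hmgn, H2a, H3f, Hist or Suv. The rule was set with earlier results of these data known, and it took 114 of 20524 listed transcripts. Their counts were summed by name and chromosome into 67 of 17290 loci.

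The series compared long noncoding RNA profiles of cortical astrocytes after ischemic preconditioning with those of untreated astrocytes, by RNA sequencing of total RNA. The preconditioned cells, called OGD here, were deprived of oxygen and glucose for 45 min at 1% oxygen and then returned to normal medium and oxygen for 24 h (2 libraries). Control cells were untreated (2 libraries). In both groups the astrocytes were primary cortical cells of newborn Wistar rats, grown on coverslips above neurons, kept apart by paraffin and bathed in the same medium. These are cultured cells and not brain tissue. Whether replicates were independent cultures is not recorded, so the p-values concern these libraries only. They set a group difference against the spread of the libraries, estimated across all tested loci, and that spread may be technical.

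Chromatin regulators set how tightly DNA is packed and which genes can be transcribed. Histone acetyltransferases and deacetylases, methyltransferases and demethylases add and remove marks, reader proteins bind those marks, and remodellers move nucleosomes with energy from ATP. The JmjC demethylases and the TET enzymes use molecular oxygen, sirtuins use NAD, and deacetylases have been studied in brain ischemia and tolerance.

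The listed transcripts totalled 2646300 and 2513804 counts in OGD replicates 1 and 2, and 2607020 and 2631684 counts in control replicates 1 and 2. Of these counts, the chromatin regulator loci held 0.144% and 0.125% after OGD and 0.160% and 0.124% in control. Astrocyte marker names were present at 5 loci, summing to 49.1 ± 21.7 CPM (counts scaled to library size) after OGD and 42.6 ± 11.8 CPM in control (SD, n = 2 each), and the locus of Gfap, an intermediate filament gene, had 139 and 51 counts after OGD and 100 and 61 counts in control. The other astrocyte names on the list had no locus in the tables. Neuron marker names summed to 110 ± 3.15 CPM after OGD and 97.5 ± 20.5 CPM in control (SD, n = 2 each), over 4 loci whose values differed in direction. Gria2, of a glutamate receptor subunit, made up most of that sum, at 81.5 ± 15.6 CPM after OGD and 95.4 ± 20.1 CPM in control. Syn1, of a synaptic vesicle protein, had 98 and 45 counts after OGD, against 2 and 1 in control, without overlap (log2 fold change 5.50, adjusted p 0.185 in edgeR), and Nefl and Syt1 had at most 4 counts in any library. The part of neuronal RNA in the values of the chromatin regulator loci was not tested. Bulk counts cannot tell fewer cells of a type from less RNA per cell. Of the proliferation markers, loci named after Mki67 and Top2a had enough counts to be tested: Mki67 had 12 and 5 counts after OGD and 17 and 14 in control, and Top2a had 24 and 22 counts after OGD and 19 and 7 in control.

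All 114 transcripts carry NONCODE identifiers and names of the AceView gene catalogue, in which a letter marks each transcript. They were 235 to 2546 bases long, with a median of 588 bases. AceView marks 37 of them (32.5%) as unspliced, against 54.4% of the other transcripts with an AceView name. RefSeq held 66 of the 67 names, 53 as a current symbol and 13 as a former name, and each of the 66 belongs to a protein-coding gene. Counts of such a transcript may include reads of that gene's messenger RNA, and the tables give no strand. Cbx3 lies on chromosome 16 and Hmgb2l1 on chromosome 19 in the files, while RefSeq places genes of these names on chromosomes 4 and 11. Which gene the Hmgb2l1 locus belongs to was not settled, and it may not be the RefSeq gene of that name. Values of the Cbx3 locus, and of the histone, Hmgn2 and Hmgb2 loci, are uncertain because near-identical copies exist. The authors' counting could split reads among such copies. Of the 67 loci, 27 sum 2 or more transcripts, up to 9 at Hmga1, and 11 share positions with a transcript of another name. The files' coordinates are printed without a build name, since the submitters' processing notes give the mouse build mm9 for rat tables.

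Of the 67 loci, 50 had enough counts to be tested, and the test used edgeR's quasi-likelihood F test on group alone with Benjamini-Hochberg adjustment over 9581 loci. At an adjusted p under 0.05, 0 of the 50 loci passed, where 0.0835% of all tested loci did, 0.0417% higher and 0.0417% lower after OGD. The smallest adjusted p among the members was 0.940. By edgeR, 4 members had an unadjusted p under 0.05, against 2.33% of all loci. Of the 4, 2 were higher after OGD (Hdac4 and Hmgb2l1, against 1.23% of all loci) and 2 lower (Whsc1 and H2afz.1, against 1.1%). DESeq2 called 0 of the 50, where it called 0.397% of all loci, and gave 1 an unadjusted p under 0.05.

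The fitted log2 fold changes of the 50, OGD over control, split evenly, with 25 above 0 and 25 below 0. Their median was -0.0058, against -0.0018 over all tested loci. The middle of the distribution ran from -0.26 to 0.24 (quartiles), against -0.21 to 0.22 over all tested loci. Differences smaller than 0.5 on the log2 scale in either direction made up 72.0% of the members and 80.4% of all tested loci. A log2 fold change of at least 1 in size was fitted at 4 of the 50 members and at 4.43% of all tested loci. For 15 of the 50, and for 3420 of all 9581 tested loci, the approximate 95% interval lay wholly between -1 and 1. For the other members it reached past a 2-fold difference. The levels of the OGD and control libraries did not overlap at 18 of the 50 loci, 7 higher and 11 lower after OGD, which is 36.0% against 28.0% of all tested loci (14.0% in each direction).

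**Figure D1:**
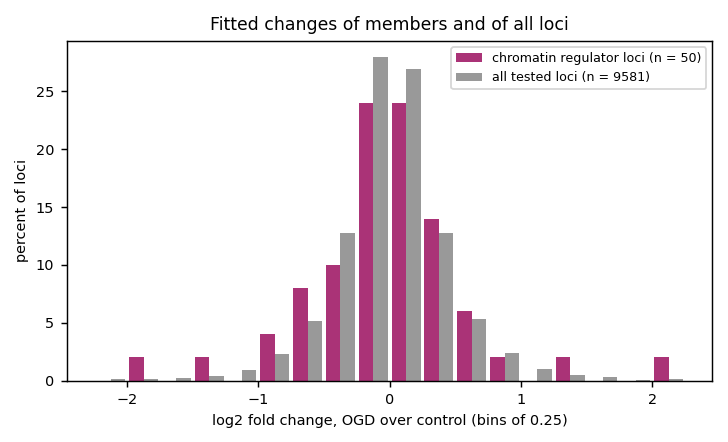
Percent of loci (vertical axis) in each bin of fitted log2 fold change, OGD over control (horizontal axis, bins of 0.25), for the 50 tested chromatin regulator loci and for all 9581 tested loci, of which 74 lie beyond the plotted range. Both sets peak around 0, and 24.0% of the members fall in each of the bins next to 0.

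Replicates were about as far apart at these loci as at the rest. The median ratio of the higher to the lower library was 1.26 within OGD and 1.29 within control, against 1.29 and 1.32 over all tested loci. A ratio of at least 2 within either group occurred at 11 of the 50 loci (22.0%) and at 24.7% of all tested loci. Control replicate 1 held the highest level at 17 of the 50 members, OGD replicate 1 at 13 and the other libraries at 10 each, and control replicate 2 held the lowest level at 17. Over all tested loci control replicate 1 was highest at 24.7% and control replicate 2 lowest at 27.3%.

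**Figure D2:**
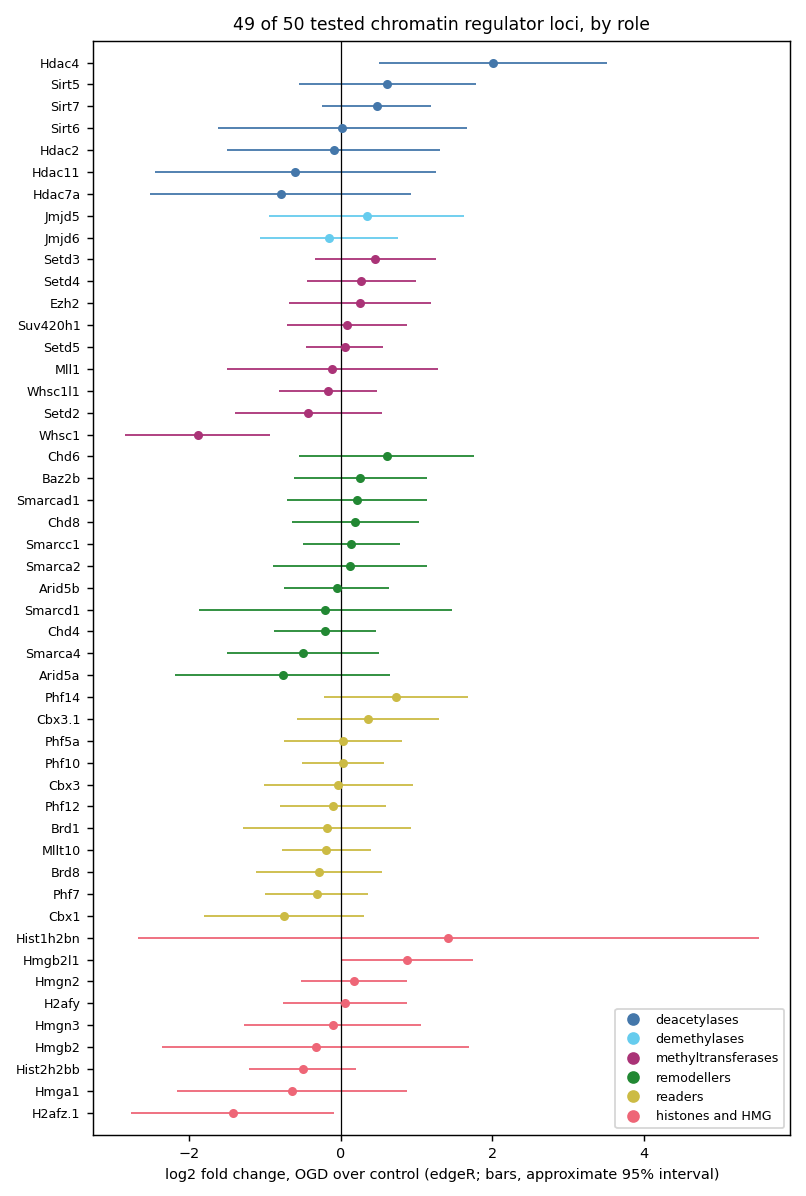
Fitted log2 fold change (OGD over control) of 49 of the 50 tested chromatin regulator loci, with approximate 95% intervals, ordered by role. Whsc1 at -1.89 and Hdac4 at 2.01 stand farthest from 0, and the interval of Hist1h2bn is the widest.

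Promoters are shown for Nsd2 and Hdac4, the genes of the loci farthest from 0, and for Hmga1, whose listed transcripts are the most numerous, from 250 bases before to 50 after the RefSeq start in build GRCr8. These are the genes' own promoters, and nothing in the tables places the start of a listed noncoding transcript there. Capitals mark CCAAT boxes (CCAAT) and GC boxes (GGGCGG) on either strand. Nsd2 (the Whsc1 locus, chr14:81135815-81136114, minus strand) holds 1 CCAAT box and 4 GC boxes, Hdac4 (chr9:100197588-100197887, minus strand) holds 2 and 3, and Hmga1 (chr20:5613258-5613557, plus strand) holds 1 and 5.
Nsd2: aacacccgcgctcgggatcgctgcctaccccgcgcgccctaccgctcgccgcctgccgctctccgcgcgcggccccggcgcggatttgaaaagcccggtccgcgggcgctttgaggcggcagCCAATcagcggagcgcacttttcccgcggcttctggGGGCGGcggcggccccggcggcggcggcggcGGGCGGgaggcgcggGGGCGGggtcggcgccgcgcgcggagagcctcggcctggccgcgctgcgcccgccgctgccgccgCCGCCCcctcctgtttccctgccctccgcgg
Hdac4: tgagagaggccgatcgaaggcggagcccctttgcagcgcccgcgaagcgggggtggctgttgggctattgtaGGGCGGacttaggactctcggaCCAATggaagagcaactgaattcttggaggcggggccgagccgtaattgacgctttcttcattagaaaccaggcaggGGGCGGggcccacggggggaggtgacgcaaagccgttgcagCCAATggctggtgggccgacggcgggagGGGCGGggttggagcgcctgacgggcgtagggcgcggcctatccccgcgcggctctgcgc
Hmga1: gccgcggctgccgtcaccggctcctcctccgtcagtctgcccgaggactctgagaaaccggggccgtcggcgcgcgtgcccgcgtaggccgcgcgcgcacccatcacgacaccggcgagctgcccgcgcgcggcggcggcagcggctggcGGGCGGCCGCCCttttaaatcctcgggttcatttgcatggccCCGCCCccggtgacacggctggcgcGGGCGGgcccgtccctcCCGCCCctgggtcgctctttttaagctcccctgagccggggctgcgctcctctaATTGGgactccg
The promoters differ in base composition, with 81.0% G and C in Nsd2, 67.0% in Hdac4 and 74.0% in Hmga1. RefSeq held promoters for 54 genes that the loci are named after, with a median of 64.7% G and C, against 51.7% over 33469 promoters. The 54 are of protein-coding genes, 1 promoter per gene. The larger set was not limited to protein-coding genes or to 1 promoter per gene, so the 2 sets may differ in kind. A GC box occurred in 72.2% of the 54 and in 33.1% of all promoters, and a CCAAT box in 48.1% and 37.5%. The core letters of the hypoxia response element were searched as ACGTG and GCGTG on both strands. ACGTG occurred in 18.5% of the 54 and in 19.3% of all promoters, and GCGTG in 48.1% and 29.7%. Either core occurred in 57.4% of the 54 and in 41.6% of all promoters. The windows of Nsd2, Hdac4 and Kdm3a hold neither core, and that of Hmga1 holds 1 GCGTG. GC-rich windows hold GC-rich letters more often, and these matches are a description of sequence only.

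Deacetylases remove acetyl groups from histones and other proteins. Of 9 loci named after them 7 were tested, 0 passed, and their median log2 fold change was 0.02. Hdac4 encodes a class IIa deacetylase that shuttles between nucleus and cytoplasm, and its locus, with counts below the level set for naming loci, was singled out after its values were seen. It lists 1 unspliced transcript of 592 bases (chromosome 9, 99100472 to 99101063 in the files). Hdac4 had 14 and 10 counts after OGD, against 4 and 2 counts in control. Both OGD libraries lay above both controls, and the log2 fold change was 2.01 (SE 0.58, approximate 95% interval 0.51 to 3.51). The unadjusted p in edgeR was 0.0188 and the adjusted p 1.00, and the ratio of OGD to control in summed counts, scaled by the TMM-adjusted totals of tested loci, was 4.16, with an exact 95% counting interval of 1.66 to 12.4. Counting intervals cover counting error only.

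Sirt7, the gene of a nucleolar sirtuin, had 50 and 45 counts after OGD, against 35 and 36 counts in control. The groups did not overlap, and its level was 18.8 ± 0.0516 CPM after OGD and 13.5 ± 1.14 CPM in control (SD, n = 2 each). Its log2 fold change was 0.47 (SE 0.28) and its unadjusted p in edgeR 0.150. Sirt5, of a mitochondrial desuccinylase, also showed no overlap, with 12 and 13 counts after OGD and 10 and 7 in control. Sirt6, of a chromatin-bound sirtuin, had 24 and 32 counts after OGD and 46 and 13 in control, so its controls spanned both OGD libraries. Hdac7a, now Hdac7, had 10 and 20 counts after OGD and 16 and 38 in control, with overlapping groups and a log2 fold change of -0.79 (SE 0.66). Hdac11 and Hdac2 overlapped as well, and Sirt3 and Sirt4 had at most 6 counts in any library.

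Demethylases remove methyl groups from histone lysines, and several of their genes are known targets of hypoxia-inducible factors. By name alone, 6 loci were placed in this role, and not every one need belong to a demethylase gene. Only 2 of the 6 could be tested. Jmjd6, the gene of an oxygen-dependent lysyl hydroxylase, had 46 and 38 counts after OGD, against 63 and 35 in control, and Jmjd5, now Kdm8, had 9 and 14 counts after OGD, against 10 and 9 in control. In both the groups overlapped. Jmjd1a, now Kdm3a and a hypoxia-inducible H3K9 demethylase gene, had 7 and 5 counts after OGD, against 9 and 26 counts in control. The filter on low counts removed it before the test. Both OGD libraries were below both controls in counts, and the lower control exceeded the higher OGD library by 2 counts. Jmjd1c, Jmjd2a and Jmjd2c, the first of which names the JmjC family protein JMJD1C and the others Kdm4a and Kdm4c, had 2 to 13 counts in each library. The locus sums of the 6 were 30.2 ± 1.47 CPM after OGD and 35.8 ± 0.677 CPM in control (SD, n = 2 each). Those SDs hide spread within single loci. In control replicates 1 and 2, Jmjd6 stood at 22.9 and 13.9 CPM and Jmjd1a at 3.28 and 10.4 CPM. Jmjd5 and Jmjd1c were higher on average after OGD, and the other loci lower.

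Methyltransferase loci numbered 10, with 9 tested and 0 past the adjusted threshold. They include Whsc1, now Nsd2, whose enzyme dimethylates lysine 36 of histone H3 and is altered in myeloma, and whose human locus is deleted in Wolf-Hirschhorn syndrome. Whsc1 (chromosome 14, 82118095 to 82136713 in the files) had 36 and 18 counts after OGD, against 103 and 103 counts in control. Both OGD libraries lay far below both controls, at 10.5 ± 4.28 CPM after OGD and 39.3 ± 2.51 CPM in control (SD, n = 2 each). The log2 fold change was -1.89 (SE 0.37, approximate 95% interval -2.85 to -0.93), with an unadjusted p in edgeR of 0.00413 and an adjusted p of 0.940. By summed counts on the same TMM-adjusted scale, the ratio of OGD to control was 0.273, with an exact 95% counting interval of 0.198 to 0.370. DESeq2 gave an adjusted p of 0.0875, the lowest of its alternatives, whose adjusted p ran up to 1.00.

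The difference at Whsc1 sat in 1 of its 4 listed transcripts. Transcript f, an unspliced transcript of 1157 bases (chromosome 14, 82118095 to 82119251), had 7 and 9 counts after OGD, against 85 and 81 counts in control. Tested as transcripts without summing, it had a log2 fold change of -3.30 (SE 0.32) and an adjusted p of 0.139 in edgeR over 10892 transcripts, so it did not pass, where 0.00918% of all transcripts did. Its share of the locus counts was 19.4% and 50% after OGD, against 82.5% and 78.6% in control. Without transcript f, the locus measured 7.34 ± 5.07 CPM after OGD and 7.66 ± 1.57 CPM in control (SD, n = 2 each). Transcript f was left out because of its values, so the remainder is a description and not a test. Transcript d had 21 and 4 counts after OGD, against 12 and 17 in control, and transcript e had 8 and 5, against 6 and 5. Transcript c, which overlaps f, had 0 counts in all 4 libraries.

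The paralog Whsc1l1, now Nsd3, had 99 and 79 counts after OGD, against 96 and 111 in control, with overlapping groups and a log2 fold change of -0.17 (SE 0.25). Setd2, of the enzyme that trimethylates the same lysine, had 20 and 13 counts after OGD, against 25 and 21 in control, with both OGD libraries lower (log2 fold change -0.43, SE 0.37). Setd5 was among the most even loci, with 268 and 258 counts after OGD and 295 and 236 in control, a log2 fold change of 0.05 (SE 0.19, interval -0.46 to 0.56). Setd3, of an actin histidine methyltransferase, had 76 and 106 counts after OGD, against 69 and 70 in control. Its groups did not overlap, and its log2 fold change of 0.46 (SE 0.31) was 0.11 without OGD replicate 2. Ezh2, the catalytic subunit of Polycomb repressive complex 2, had 37 and 23 counts after OGD and 29 and 23 in control. Mll1, now Kmt2a, and Suv420h1, now Kmt5b, also overlapped. Suv39h2, of an enzyme that trimethylates lysine 9 of histone H3, was removed by the filter on low counts, with 10 and 0 counts after OGD and 28 and 6 in control.

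Setd4, of a SET domain methyltransferase, held transcripts g and e, whose counts differed between single libraries more than between groups. The summed locus had 80 and 98 counts after OGD, against 87 and 68 in control, with overlapping groups and a log2 fold change of 0.27 (SE 0.28). Transcript g had 0 and 48 counts after OGD, against 53 and 0 in control, so it held counts in 1 library of each group. Transcript e, with which g shares nearly its whole span, had 56 and 32 counts after OGD and 23 and 57 in control, lower wherever g held counts. How reads were divided between g and e is not recorded, so 0 counts for g need not mean that it was absent. Transcript d, which lies within the span of g, was singled out after its values were seen. It had 18 and 16 counts after OGD, against 7 and 6 in control (log2 fold change 1.42, SE 0.40, unadjusted p 0.0201, adjusted p 1.00 in edgeR on transcripts).

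**Figure D3:**
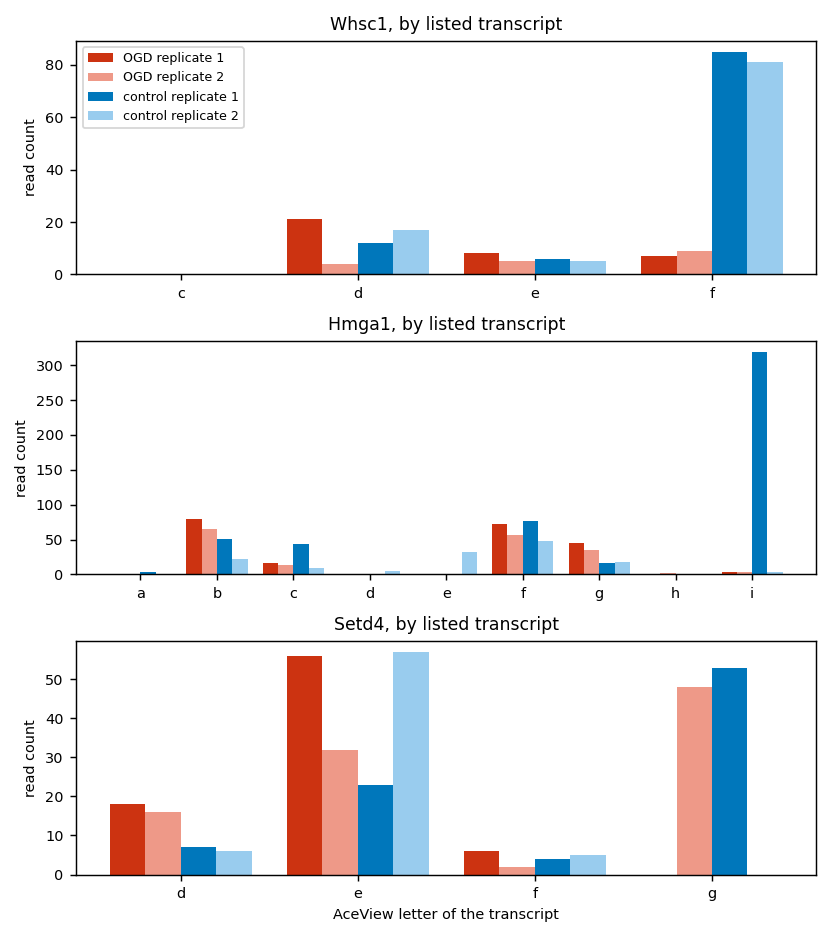
Read counts (vertical axes, not normalised) of each listed transcript of Whsc1, Hmga1 and Setd4, by AceView letter (horizontal axes), in the OGD and control libraries. Whsc1 transcript f stands at 7 and 9 after OGD against 85 and 81 in control, whereas Hmga1 transcript i is high in control replicate 1 alone, at 319, and Setd4 transcript g in 1 library of each group.

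By name alone, 14 loci were placed among the remodellers, and not every one need belong to a gene of a remodeller subunit. Of these, 11 were tested and 0 passed, with a median log2 fold change of 0.12. Smarcc1, of the BAF155 core subunit of SWI/SNF complexes, had 359 and 228 counts after OGD and 295 and 255 in control, so the OGD libraries spanned both controls. Its transcript e had the highest level per length of all member transcripts, at 30.2 and 18.7 FPKM (the deposited level per length and library size) after OGD and 21.1 and 18.1 FPKM in control. Chd8, of an ATP-dependent remodeller linked to autism, had 115 and 79 counts after OGD and 111 and 66 in control. Arid5b, of a DNA-binding partner of the demethylase PHF2, had 84 and 85 counts after OGD and 82 and 100 in control, and Baz2b had 43 and 49 after OGD and 50 and 31 in control. All 4 overlapped between groups.

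Smarca4 and Smarca2 encode the catalytic subunits of SWI/SNF. Smarca4 (BRG1) had 12 and 11 counts after OGD, against 19 and 15 in control, without overlap (log2 fold change -0.50, SE 0.38). Smarca2 (BRM) had 71 and 38 counts after OGD and 64 and 40 in control, with a wider gap within each group than between them. Chd4, the ATPase of the NuRD complex, had 45 and 43 counts after OGD, against 57 and 49 in control, a log2 fold change of -0.21 (SE 0.26). Chd6 had 12 and 13 counts after OGD, against 8 and 9 in control, and Arid5a had 5 and 10, against 14 and 13. The groups of Chd4, Chd6 and Arid5a did not overlap. Smarcad1 and Smarcd1 overlapped, with 24 to 40 and 6 to 17 counts per library. None of these passed the test, and edgeR's smallest unadjusted p in this role was 0.220. Arid1b, Chd1l and Smarcal1 had at most 18 counts in any library and were not tested.

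Loci placed among the readers by name alone, the elongation factor gene Mllt10 with them, numbered 16. Of these, 12 were tested, 0 passed the threshold, and the median log2 fold change was -0.07. Phf10, of the BAF45A subunit of the PBAF remodeller, had the most counts of the members in 3 of the 4 libraries, 448 and 488 after OGD and 459 and 496 in control. Its level of 186 ± 24.5 CPM after OGD and 182 ± 21.6 CPM in control (SD, n = 2 each) gave a log2 fold change of 0.03 with an interval of -0.51 to 0.57. Mllt10, of a partner of the DOT1L methyltransferase, had 107 and 84 counts after OGD and 113 and 113 in control, with no overlap in CPM and a log2 fold change of -0.19 (SE 0.23).

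Phf14 gave the largest positive value among reader loci, with 72 and 43 counts after OGD, against 44 and 28 in control. Its groups did not overlap in CPM, and its log2 fold change was 0.73 (SE 0.37), which became 0.41 with overlapping transcripts of other names merged and lay between 0.41 and 1.02 with a library left out. Cbx1, of the heterochromatin protein HP1 beta, had 11 and 15 counts after OGD, against 26 and 20 in control, without overlap (log2 fold change -0.75, SE 0.40, unadjusted p 0.126 in edgeR). Phf7, whose human and mouse protein is a histone ubiquitin ligase of the testis, had 59 and 51 counts after OGD, against 67 and 75 in control, without overlap. Brd8, of the TIP60 acetyltransferase complex, had 39 and 26 after OGD, against 45 and 37 in control, without overlap in CPM. The locus Cbx3.1, on the chromosome where RefSeq places Cbx3 (HP1 gamma), had 79 and 70 counts after OGD and 81 and 41 in control, and the locus Cbx3 on chromosome 16 had 35 and 25 after OGD and 26 and 37 in control. Brd1, Phf12 and Phf5a overlapped as well, with log2 fold changes of -0.18, -0.10 and 0.03. Brd9, Cbx7, Phf1 and Phf21b had at most 5 counts in any library.

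Loci of histones and HMG proteins numbered 10, with 9 tested and 0 past the threshold. Their sums were 306 and 203 CPM in OGD replicates 1 and 2, against 372 and 212 CPM in control replicates 1 and 2. Hmga1, of an architectural protein that binds AT-rich DNA, had 218 and 175 counts after OGD, against 511 and 139 in control, and control replicate 1 stood above the other libraries. Transcript i made up 62.4% of the locus there, with 319 counts, against 4 and 3 after OGD and 4 in control replicate 2. Transcript e likewise had 32 counts in control replicate 2 and 0 in the other libraries. Without transcript i, also left out because of its values, the locus measured 76.2 ± 6.29 CPM after OGD and 61.8 ± 11.4 CPM in control (SD, n = 2 each). The log2 fold change of the whole locus, -0.64 (SE 0.58), became 0.49 without control replicate 1. Transcript g, singled out after its values were seen, had 45 and 35 counts after OGD, against 16 and 18 in control (log2 fold change 1.27, SE 0.33, unadjusted p 0.0151, adjusted p 1.00 in edgeR on transcripts). Among the other tested Hmga1 transcripts, log2 fold changes were 1.05 for b, 0.10 for f and -0.78 for c. At the transcript level 4 of 70 tested member transcripts (5.71%) had an unadjusted p under 0.05 in edgeR, against 2.68% of all transcripts, and 0 passed after adjustment.

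H2afz.1, named for the variant histone H2A.Z, had 14 and 14 counts after OGD, against 57 and 23 in control. The groups did not overlap, and the log2 fold change of -1.43 (SE 0.51, unadjusted p 0.0410 and adjusted p 1.00 in edgeR) became -0.71 without control replicate 1. Hmgb2l1 had 33 and 31 counts after OGD, against 17 and 19 in control, close within each group and apart between them. Its level of 12.7 ± 0.349 CPM after OGD and 6.88 ± 0.978 CPM in control (SD, n = 2 each) gave a log2 fold change of 0.88 (SE 0.33) with an unadjusted p of 0.0484 and an adjusted p of 1.00 in edgeR. Hist2h2bb, of a histone H2B, had 48 and 49 counts after OGD, against 83 and 61 in control, without overlap (log2 fold change -0.50, SE 0.27). Hist1h2bn, another H2B locus, followed neither group, with 154 and 12 counts after OGD and 2 and 58 in control. Its log2 fold change of 1.42 (SE 1.57) ranged from -1.23 to 5.36 with a library left out, the first value without OGD replicate 1 and the second without control replicate 2.

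Hmgb2, of a DNA-bending protein abundant in dividing cells, had 50 and 11 counts after OGD and 57 and 22 in control, so its replicates differed more than its groups. H2afy, of macroH2A1, had 105 and 77 after OGD and 115 and 68 in control. Hmgn2, of a nucleosome-binding protein, had 108 and 87 counts after OGD and 108 and 72 in control, and Hmgn3 had 78 and 31, against 61 and 59. Hist1h2bp was removed by the filter on low counts, at 3 and 1 counts after OGD and 10 and 10 in control. Loci of DNA methylation enzymes comprised Dnmt3a and Dnmt3b, with 1 to 9 counts per library, and neither was tested.

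**Figure D4:**
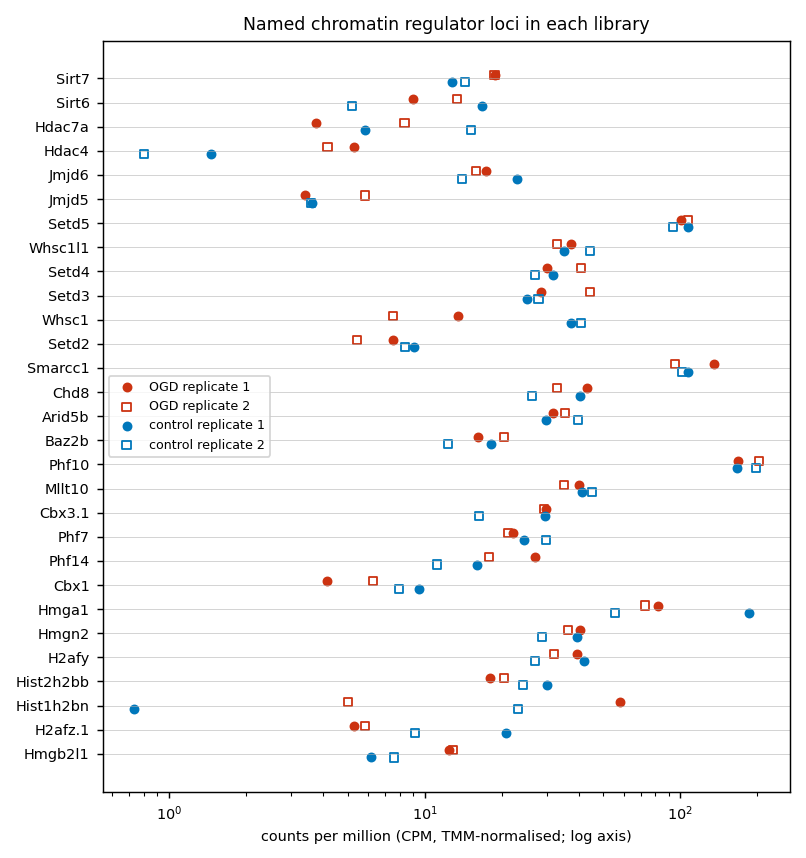
Level of the named loci in the 4 libraries, in TMM-normalised CPM (horizontal log axis), by role and level down the page. OGD and control points lie apart for Whsc1, at 10.5 and 39.3 CPM on average, and for Hdac4 and Hmgb2l1, whereas the points of Hist1h2bn are scattered across both groups.

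Other genes of chromatin complexes, outside the name rule, were counted from a separate list. Of 148 listed names, 45 had loci in the tables and 33 were tested, of which 0 passed in edgeR. Their median log2 fold change was 0.09, and 1 had an unadjusted p under 0.05, lower after OGD. That locus was Rad21, of a cohesin subunit, with 64 and 47 counts after OGD, against 97 and 107 in control (log2 fold change -0.83, unadjusted p 0.0271, adjusted p 1.00 in edgeR). Dot1l, of the H3K79 methyltransferase, had 117 and 69 counts after OGD, against 176 and 145 in control, without overlap (log2 fold change -0.74, unadjusted p 0.0515 and adjusted p 1.00 in edgeR). Prdm2, of a PR domain zinc finger protein, had 36 and 26 counts after OGD, against 10 and 19 in control, also without overlap (log2 fold change 1.12, unadjusted p 0.0658 and adjusted p 1.00 in edgeR). Dot1l and Prdm2 were chosen after their values were seen. Groups did not overlap at 8 of the 33 loci, 3 higher and 5 lower after OGD, which is 24.2% against 28.0% of all tested loci.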

How the data were processed

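Long noncoding RNA was measured by RNA sequencing in 4 libraries of rat cortical astrocytes, 2 after OGD and 2 control, grouped by sample title. The authors deposited 1 table per library, listing raw read counts beside FPKM for the same 20524 transcripts, per the file headers. The submitters' processing notes name HISAT2 and StringTie. How reads were counted, and whether by strand, is not given in the sources used here. Deposited FPKM values were used for levels per length and to recover the library totals behind them, 24934040 and 25016962 for OGD and 24949814 and 26371055 for control.

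Counts were summed by gene name and chromosome (Ensembl name, then AceView name, then StringTie gene or transcript identifier). Loci were filtered with filterByExpr, TMM-normalised and tested in R 4.3.3 with the quasi-likelihood F test of edgeR 4.0.16, with group as the only term and an adjusted p threshold of 0.05 over 9581 loci. Standard errors and intervals are approximate, from the log2 fold change and the square root of F. CPM use TMM-adjusted totals of tested loci. Ratios of summed counts use the same totals and have exact 95% binomial intervals. Alternatives were DESeq2 1.42.0, other scalings and filters, transcripts without summing, overlapping transcripts merged (by position, without strand), a block for replicate number, and omission of each library in turn. The steps were tested on simulated counts.

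The members and gene lists were chosen with earlier results of these data known. Members are named where they passed the threshold, had 1 of the 8 smallest unadjusted p-values per direction averaging 20 counts or more in 1 group, were among the 3 highest by CPM of their role, or had 0 counts in 1 group and averaged 10 or more in the other. Others are named to account for the members, and 1 tested member, included in all counts and sums, is not reported here by name. Names and promoters came from RefSeq, build GRCr8. Microglial, oligodendrocyte, fibroblast and vascular marker lists, of which 0 tested loci passed, summed to 31.7 ± 23.0, 8.96 ± 1.48, 1341 ± 349 and 28.9 ± 4.92 CPM after OGD and 38.4 ± 11.6, 12.6 ± 6.45, 1208 ± 747 and 6.37 ± 2.83 CPM in control (SD, n = 2 each). Of the 3 vascular loci, Abcc9 held nearly all of that sum (27.3 CPM after OGD and 4.48 CPM in control), while Pecam1 and Tek had at most 6 counts in any library. Ptprc held most of the microglial sum (17.3 CPM after OGD and 28.7 CPM in control). Tyrobp alone of the microglial loci was higher on average after OGD (8.31 against 2.50 CPM). Fn1 held most of the fibroblast sum (1086 CPM after OGD and 956 CPM in control).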

Additional observations from a re-analysis of the deposited data

How the results depend on the processing

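The count of chromatin regulator loci past the adjusted threshold was 0 under all 12 alternatives, and so was that of the other chromatin genes. The count over all loci, 8 in edgeR, was 38 under DESeq2, 0 in edgeR with every low-count locus kept (403 at an unadjusted p under 0.05), 1 with transcripts without summing and 21 with the replicate block, and ranged from 0 to 12 with a library left out (12 without OGD replicate 2, otherwise 0, with 257 to 354 at an unadjusted p under 0.05 in edgeR), where the lone library of a group was assumed to vary like the other group. The unfiltered test covers 16711 loci, and otherwise the cause was not tested. With the replicate number as a block, 0 members passed and Whsc1 had a log2 fold change of -1.93 (adjusted p = 0.410 in edgeR). Same-numbered libraries deviated together from their group means (r = 0.300 across loci), and what the number marks is not recorded.

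Of 347 values of 29 named members, 324 kept their direction and side of the threshold and 23 changed sign, 19 of these with a library left out. Without summing, each locus was read at its transcript with the highest mean count alone, so those values are not of the whole locus. For Jmjd6 that was transcript d, at 0.22, while transcripts f and e stood at -0.65 and -0.090. For Hmgn2 it was transcript b, at -0.032, while transcript c stood at 0.39. Jmjd6 stood at 0.092 with overlapping transcripts merged, and Sirt6 at -0.055 with totals implied by FPKM. With a library left out, the ranges were -0.46 to 0.26 for Jmjd6, -1.25 to 0.49 for Hmga1, -0.11 to 0.17 for Phf10, -1.46 to 0.054 for Hdac7a, -0.57 to 1.11 for Sirt6, -0.22 to 0.41 for H2afy, -0.023 to 0.43 for Hmgn2, -0.035 to 0.15 for Setd5, -0.33 to 0.015 for Whsc1l1, -0.24 to 0.18 for Arid5b, -0.075 to 0.54 for Chd8, -1.23 to 5.36 for Hist1h2bn, -0.12 to 0.37 for Smarcc1 and -0.091 to 0.70 for Jmjd5. Whsc1 lay between -2.37 and -1.53 and Hdac4 between 1.68 and 2.50. For these values the cause was not tested. The transcript of Hmga1 with the highest mean count could not be tested without summing, since its counts sit in 1 library.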
